A study of Arabis alpina with 12 samples.

Results

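In Arabis alpina, 6 genes had reads almost entirely from a single genotype, 1 of them on in the Aatoe2_IL line and 5 on in wild type (WT), out of 34220 genes in the count table. They were chosen by the measured counts themselves. A gene was taken as on in one genotype when its counts summed to 40 or more over the 6 libraries of that genotype and to 3 or less over the 6 libraries of the other. Both limits apply to raw read counts, both tissues together. Because the genotype difference selected these genes, it is given below as a description and not as a test. Both limits were also met by 2 further WT genes, MYB28 (Aa_G606850h1) and CYP79B3 (Aa_G407280h1), which the selection left out. With these, 7 genes were on in WT. CYP79B3 fell to 34 WT counts without WT apex replicate 1 and to 27 without both WT replicate 1 libraries, below the limit, and MYB28 to 61 and 43.

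The libraries came from the accession Pajares. Plants had grown for 8 weeks in long days and had then spent 8 weeks in short days in the cold (vernalization). The 4 groups were main shoot apices of WT, main shoot apices of Aatoe2_IL, V3 buds (axillary buds) of WT and V3 buds of Aatoe2_IL, with 3 libraries each. Apices were sampled to study AaTOE2 in flowering during vernalization, and V3 buds to study it in axillary branches. Aatoe2_IL is a single line, and the nature of its lesion is not given in the sources used here. An effect of AaTOE2 therefore cannot be told apart from any other difference between this line and WT. No name in the files pairs AaTOE2 with an identifier, so its own level was not analysed here. Replicates are numbered in the labels without a statement that they were separate plants, and p-values then measure only the spread between these samples. The tissues are bulk samples, in which fewer cells of a type and less RNA per cell cannot be told apart.

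TARGET OF EARLY ACTIVATION TAGGED genes encode APETALA2-like transcription factors. In Arabidopsis they delay flowering and are themselves targets of the microRNA miR172, which rises as the plant ages. In Arabis alpina, a perennial, flowering follows a long cold period, and some axillary buds stay vegetative or dormant so that the plant can flower again in later years. The files describe none of the 6 genes except IPMI2, a glucosinolate gene, so no shared function can be given.

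Libraries held 9411616 to 12309478 reads in genes, with the highest totals in WT apices (12032338 to 12309478). A single read was thus worth between 0.078 and 0.109 CPM (counts scaled to a common library total, with TMM, a factor that evens out library composition). Counting error alone is large at such depths: a group with 0 counts in all 3 libraries still allows 3 counts over the group, or 0.0828 CPM in WT apices, 0.102 in WT buds, 0.0943 in Aatoe2_IL apices and 0.103 in Aatoe2_IL buds. Libraries stood apart within several groups. Reads outside genes made up 18.8% in WT apex replicate 1 against 13.4% and 14.2% in the other WT apex libraries, and 21.5% in WT bud replicate 1 against 15.5% and 13.8%. In Aatoe2_IL apex replicate 2 the share was 21.1%, against 16.6% and 17.4%. On the second principal component of log CPM (19.7% of the variance), Aatoe2_IL apex replicate 1 lay at 2.41 against -29.1 and -22.1 in its group, and Aatoe2_IL bud replicate 1 at -10.4 against -37.0 and -32.5. The WT libraries lay between 14.2 and 29.7, so both Aatoe2_IL replicate 1 libraries were nearer to WT than the others of their groups. Without both Aatoe2_IL replicate 1 libraries, 1 gene was on in Aatoe2_IL and 10 in WT, among them all 6 described here, and without both WT replicate 1 libraries 5 and 1. The limits stayed the same in both cases, so that a sum over fewer libraries passes the upper limit more easily and the lower limit less easily.

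**Figure D1:**
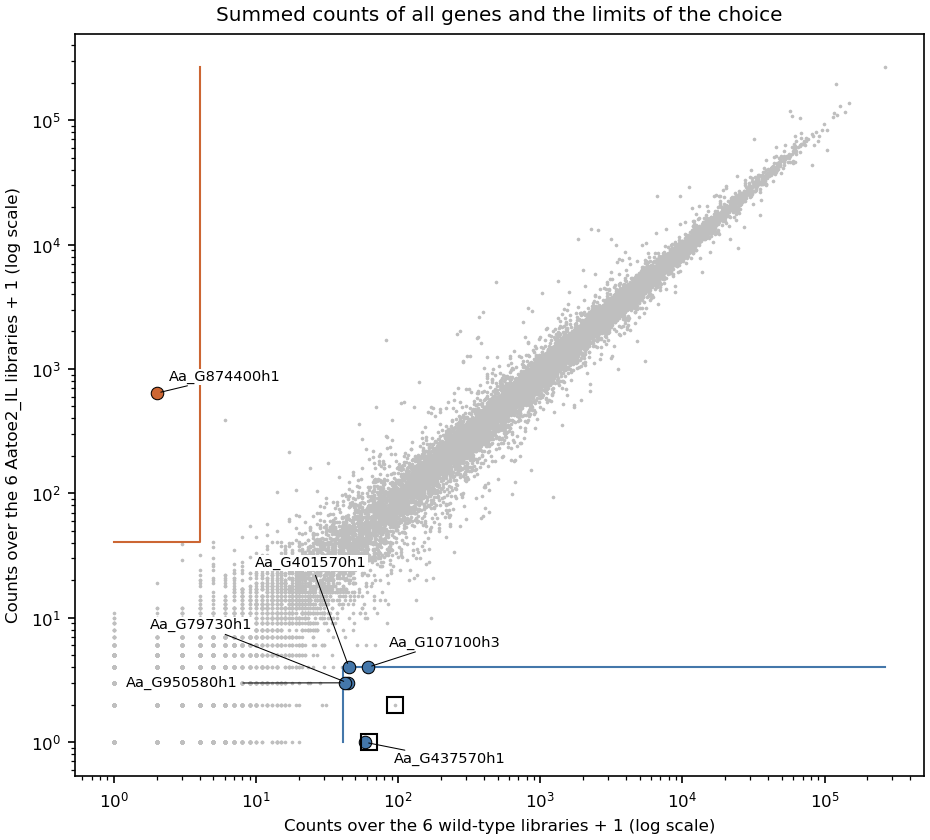
Counts of every gene summed over the 6 WT libraries (horizontal axis) and over the 6 Aatoe2_IL libraries (vertical axis), each plus 1 and on a log scale, with the limits of 3 and 40 counts as lines. Filled points mark the 6 selected genes and open squares the 2 that were left out; Aa_G874400h1, with 638 counts against 1, lies far from its limit, while the 5 WT genes lie between 41 and 60 counts, close to theirs.

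The label "on in one genotype only" held for the sums but not always to the last read. One gene, Aa_G437570h1, had 0 counts in its off genotype, and the other 5 had 1 to 3. The 11 counts in the off genotypes lay in 5 of the 12 libraries. One of them was in WT apex replicate 1, and of the 10 in Aatoe2_IL, 5 were in bud replicate 3, spread over 3 genes, and 3 in bud replicate 1, all in Aa_G107100h3. Counts were found for 5 of the 6 genes in all 6 libraries of the genotype where they were on. In apices the genotypes did not overlap for 4 of the 6 genes, 3 of them on in WT, and in buds for 5 of the 6, 4 of them on in WT. Over all 19520 genes tested, groups did not overlap with WT higher for 10.8% in apices and 10.8% in buds, and with Aatoe2_IL higher for 9.95% in apices and 11.4% in buds. The selection used this contrast, so nothing is read from the comparison of these shares.

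The gene on in Aatoe2_IL was Aa_G874400h1, for which the authors' lists give no Arabidopsis orthologue. It had 119, 102 and 93 counts in Aatoe2_IL apex replicates 1 to 3 and 108, 125 and 91 in Aatoe2_IL bud replicates 1 to 3. In WT it had 1 count, in apex replicate 1, and 0 in the other 5 libraries. All 6 Aatoe2_IL libraries were high, all 6 WT libraries were at or near 0, and the genotypes did not overlap in either tissue. On the CPM scale its level was 9.87 ± 0.876 in Aatoe2_IL apices and 11.1 ± 1.03 in Aatoe2_IL buds (SD, n = 3). Scaled for library size, the 638 counts in Aatoe2_IL against 1 in WT gave a ratio of 690, with an exact 95% interval of 123 to 27279 that covers counting error only. This interval, and those given for other members, shows the precision of a ratio whose direction the selection fixed, and is no test. The upper end is wide because the ratio has a single count below the line. Its coefficient of variation over the 6 Aatoe2_IL libraries, tissues together, was 10.5%. In the authors' deposited table the group means were 0.291 in WT and 111.48 in Aatoe2_IL apices and 0 and 108.16 in buds, in normalized counts. The authors' genotype p-values are not repeated for the 6 genes, since the same contrast chose them. It met both limits whichever of the 12 libraries was left out.

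**Figure D2:**
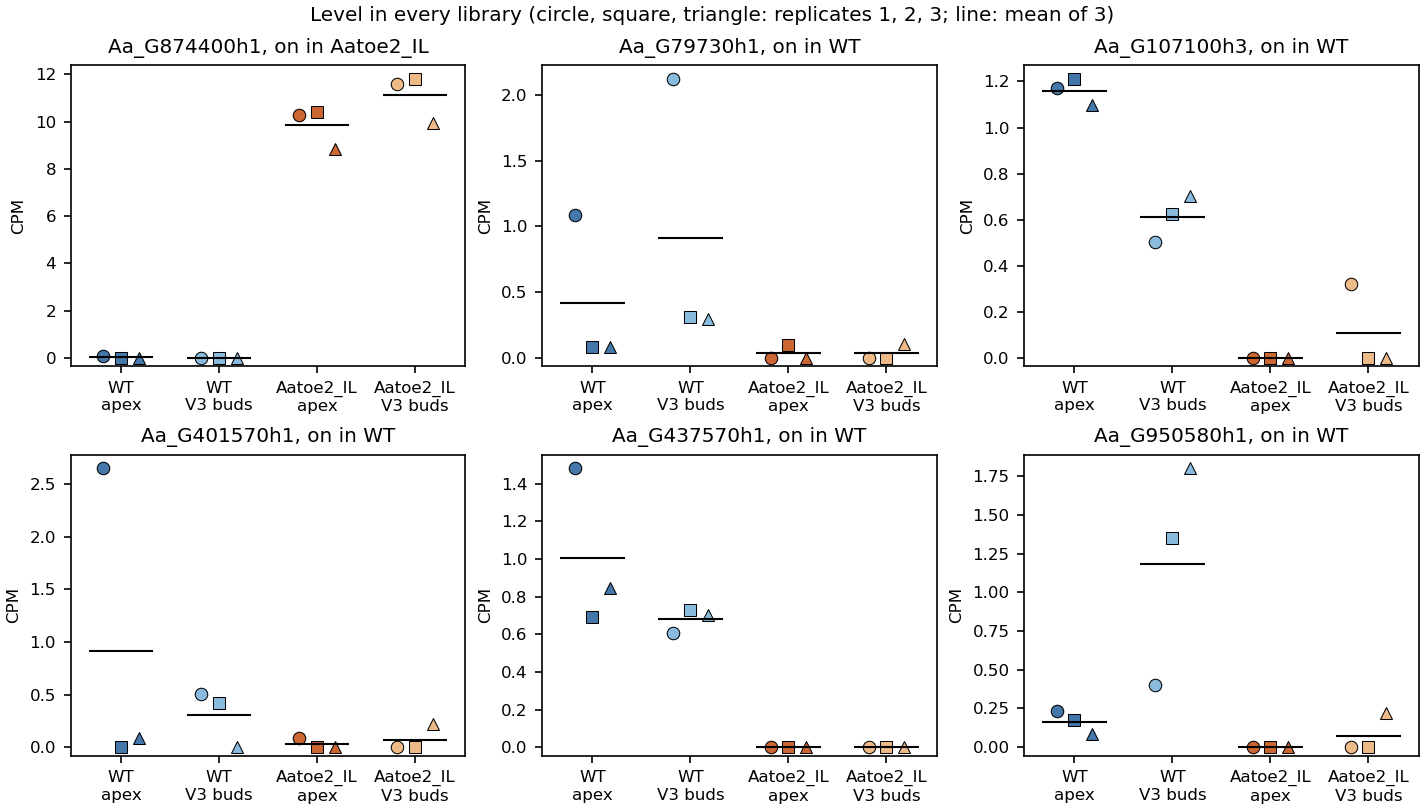
CPM (vertical axis, linear, with a scale of its own in each panel) of the 6 genes in each of the 12 libraries, grouped by genotype and tissue; circles, squares and triangles are replicates 1, 2 and 3, and lines are means. Aa_G874400h1 is even across the 6 Aatoe2_IL libraries, Aa_G107100h3 and Aa_G437570h1 are present in all 6 WT libraries, Aa_G950580h1 is higher in WT buds than in WT apices, and Aa_G79730h1 and IPMI2 (Aa_G401570h1) are highest in WT replicate 1.

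Among the 5 genes on in WT, 2 had at least 5 counts in every WT library of both tissues. Aa_G107100h3 had 15, 14 and 13 counts in WT apices, 5, 6 and 7 in WT buds, 0 in all 3 Aatoe2_IL apex libraries and 3, 0 and 0 in Aatoe2_IL buds. Every WT library was above every Aatoe2_IL library of its tissue, and apices were above buds within WT. Its level was 1.16 ± 0.0564 CPM in WT apices and 0.610 ± 0.099 CPM in WT buds (SD, n = 3). The ratio of WT to Aatoe2_IL, 60 counts against 3, was 18.5 (95% interval 6.04 to 92.2). It met the limits without each of the 12 libraries in turn, and it still had 40 WT counts without both WT replicate 1 libraries. With counts scaled to a common library size it no longer met the limits. The authors' deposited table lists it in apices with a mean of 13.03 normalized counts in WT and 0 in Aatoe2_IL, without an orthologue.

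Aa_G437570h1 had 19, 8 and 10 counts in WT apices, 6, 7 and 7 in WT buds and 0 in all 6 Aatoe2_IL libraries. Every WT library was thus above every Aatoe2_IL library, and the highest WT value was apex replicate 1. Its level was 1.01 ± 0.42 CPM in WT apices and 0.678 ± 0.0648 CPM in WT buds (SD, n = 3). With the floor of 3 counts put in for the off genotype, its 57 WT counts gave a ratio of 17.6. This value leaves out the counting error of the 57 counts and is no interval like those of the other members. It was the only one of the 6 genes with no count at all in the off genotype. Without WT apex replicate 1 it had 38 WT counts and no longer met the limit of 40. The authors' deposited table gives it 11.29 normalized counts in WT apices and 0 in Aatoe2_IL apices, again without an orthologue.

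Aa_G950580h1 had most of its reads in WT buds. It had 3, 2 and 1 counts in WT apices, 4, 13 and 18 in WT buds, 0 in all Aatoe2_IL apex libraries and 0, 0 and 2 in Aatoe2_IL buds. WT exceeded Aatoe2_IL in every library of either tissue, and every WT bud library exceeded every WT apex library, although bud replicate 1 was low beside the other 2. Its level was 0.164 ± 0.0752 CPM in WT apices and 1.19 ± 0.714 CPM in WT buds (SD, n = 3). The ratio of WT to Aatoe2_IL was 19.0 (95% interval 4.93 to 162), from 41 counts against 2. With its WT sum just inside the limit, it met the rule in 7 of the 12 cases in which 1 library was left out. In the authors' deposited table it stands in the bud list, at 11.51 normalized counts in WT and 0.709 in Aatoe2_IL, and no orthologue is given.

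The other 2 WT genes rested on the WT replicate 1 libraries. Aa_G79730h1 had 14, 1 and 1 counts in WT apices, 21, 3 and 3 in WT buds, 0, 1 and 0 in Aatoe2_IL apices and 0, 0 and 1 in Aatoe2_IL buds. WT replicate 1 was high in both tissues, and in apices WT replicates 2 and 3 overlapped with Aatoe2_IL. Of its 43 WT counts, 35 (81.4%) came from the 2 replicate 1 libraries, and 8 were left without them. Its level in CPM was 0.421 ± 0.581 in WT apices and 0.910 ± 1.05 in WT buds (SD, n = 3), so the SD exceeded the mean in both. The ratio of WT to Aatoe2_IL was 19.9 (95% interval 5.18 to 170). Aa_G79730h1 was the only one of the 6 genes in none of the authors' lists.

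IPMI2 (Aa_G401570h1, paired with AT2G43100 in the authors' lists) was the only one of the 5 members in those lists that had an orthologue there. In Arabidopsis, IPMI2 is a small subunit of isopropylmalate isomerase and acts in the lengthening of the methionine side chain, an early step towards aliphatic glucosinolates, the sulfur-rich defence compounds of the cabbage family. Its counts were 34, 0 and 1 in WT apices, 5, 4 and 0 in WT buds, 1, 0 and 0 in Aatoe2_IL apices and 0, 0 and 2 in Aatoe2_IL buds. A single library, WT apex replicate 1, was high, WT apex replicate 2 and WT bud replicate 3 were at 0, and the genotypes overlapped in both tissues. That library held 77.3% of the 44 WT counts. Without it 10 WT counts were left, and without both WT replicate 1 libraries 5 were left. Its level in CPM was 0.913 ± 1.51 in WT apices and 0.307 ± 0.269 in WT buds (SD, n = 3). The ratio of WT to Aatoe2_IL, 13.6 (95% interval 4.35 to 68.3), therefore describes mainly 1 library. The authors' deposited table lists it at 10.2 normalized counts in WT apices and 0.327 in Aatoe2_IL apices, a fold of 0.032. With counts scaled to a common library size it, too, no longer met the limits.

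Most other glucosinolate genes with a name in the authors' lists were also highest in the WT replicate 1 libraries. Of 13 such genes, IPMI2 included, 11 had their highest WT apex value in replicate 1 and 10 their highest WT bud value in replicate 1. The exceptions were CYP79A2 in both tissues, FMOGS-OX6 in apices, and SOT16 and SOT17 in buds. Over all genes tested, 41.0% in apices and 43.9% in buds had their highest WT value in replicate 1. The names of these 13 genes had been seen before they were listed, and the authors had picked them from these libraries, so the counts are a description only. The part of these libraries in the values of Aa_G79730h1 and IPMI2 was given by the counts without them, and what made replicate 1 differ was not tested. MYB28, a regulator of aliphatic glucosinolate genes in Arabidopsis, had 94 WT counts against 1 and CYP79B3, an enzyme at the start of indole glucosinolate synthesis, had 61 against 0.

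**Figure D3:**
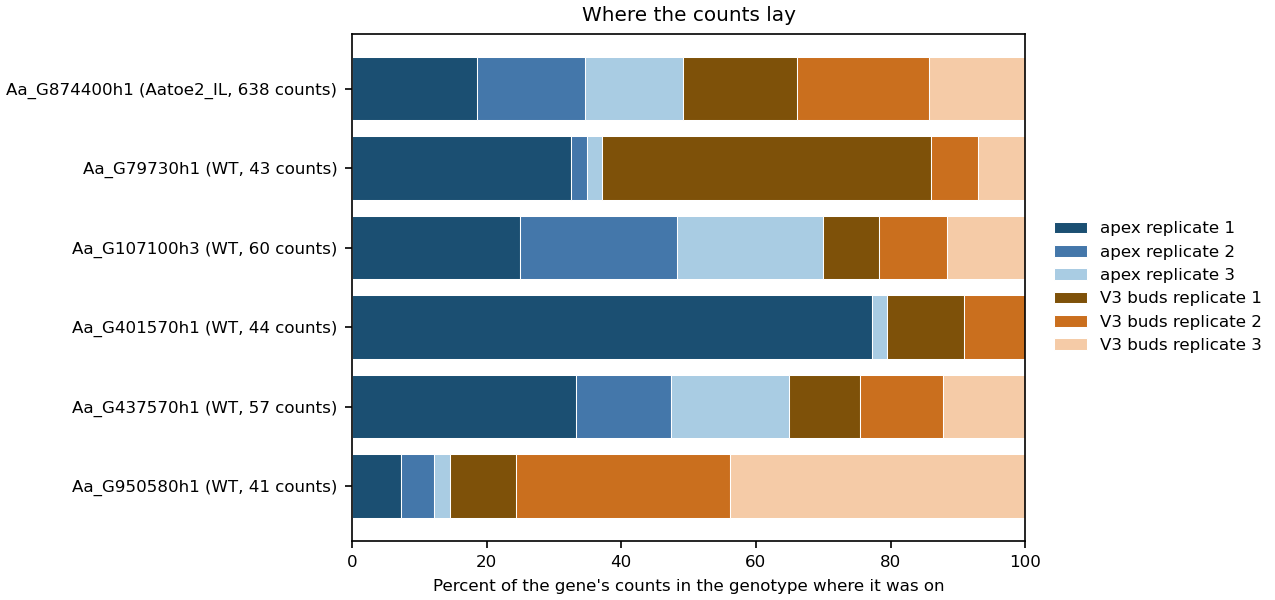
Percent of each gene's counts in its on genotype (horizontal axis, 0 to 100%; 1 bar per gene) that came from each of the 6 libraries of that genotype, stacked by library. WT apex replicate 1 alone held 77.3% of the counts of IPMI2 (Aa_G401570h1) and the 2 WT replicate 1 libraries held 81.4% of those of Aa_G79730h1, whereas the largest share for Aa_G874400h1 was 19.6%.

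How the reads of each gene were split between tissues was not used in the selection, so V3 buds and apices were compared within the on genotype. Of the 6 genes, 2 passed edgeR's filter on low counts and were tested, Aa_G874400h1 and Aa_G107100h3, and neither passed the threshold of an adjusted p of 0.05. Aa_G107100h3 reached the level the filter asks for in WT apices alone, in 3 libraries, so that its presence among the tested genes already favoured a lower value in buds, and its result is a description. Among all genes tested, 5.67% differed between the tissues in Aatoe2_IL and 11.2% in WT. For Aa_G874400h1 the log2 difference of buds minus apices in Aatoe2_IL was 0.18 (SE 0.20, edgeR adjusted p = 0.788). Over 12 alternative settings this difference stayed between 0.10 and 0.25, with adjusted p between 0.478 and 0.931. For Aa_G107100h3 the log2 difference in WT was -0.91 (SE 0.55, edgeR adjusted p = 0.324), and between -1.03 and -0.79 over 12 alternatives, with adjusted p between 0.236 and 0.544. Neither result shows that the levels were equal in the tissues.

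The 4 genes below the filter were examined in a fit without it, which called 2319 genes between the tissues in WT. That fit held every gene with any count, and the share of its genes that was called was not counted. Nothing is therefore read from how many of the 4 passed. Aa_G950580h1 was higher in WT buds, with a log2 difference of 2.76 (SE 0.82, edgeR without the filter, adjusted p = 0.0399), but the DESeq2 Wald test gave 2.85 with an adjusted p of 0.0659. The other 3 did not pass in that fit: Aa_G79730h1 had 1.05 (edgeR adjusted p = 0.532), Aa_G437570h1 had -0.57 (0.623) and IPMI2 had -1.58 (SE 1.10, adjusted p = 0.438). By an exact permutation test, two-sided, over the 3 bud and 3 apex libraries of the on genotype, Aa_G950580h1 and Aa_G107100h3 both gave p = 0.1, which is the smallest this design allows. These were the only 2 of the 6 genes whose tissues did not overlap within the on genotype, and any gene without overlap reaches that p. The share of all genes without overlap between tissues was not counted, so nothing is read from this number. Adjusted over the 6 genes, both exact p-values became 0.3, and those of the others lay between 0.45 and 1.0.

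The size of the selected set followed from its limits. Just inside them stood Aa_G950580h1 (41 WT counts against 2) and Aa_G79730h1 (43 against 2), and at the upper limit of the off genotype Aa_G107100h3 and IPMI2, each with 3. Just outside on the Aatoe2_IL side was Aa_G647150h1, with 72, 41 and 58 counts in Aatoe2_IL apices, 84, 73 and 57 in Aatoe2_IL buds, 4, 1 and 0 in WT apices and 0 in WT buds. Its 385 counts made it the only gene near the limits with a sum of the order of Aa_G874400h1, and it was left out for 5 WT counts, 4 of them in WT apex replicate 1. Aa_G302650h1 (40 against 4) and Aa_G323170h1 (38 against 2) missed a limit by 1 and 2 counts. Their reads were uneven: Aa_G302650h1 had 20 in Aatoe2_IL apex replicate 3 and Aa_G323170h1 had 22 in Aatoe2_IL bud replicate 2.

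On the WT side, Aa_G748480h1 (68 against 5), Aa_G214640h1 (58 against 5), Aa_G132320h1 (50 against 5) and Aa_G175670h1 (39 against 3) lay just outside. Aa_G748480h1 resembled IPMI2 in that 59 of its WT counts were in apex replicate 1. Aa_G132320h1 was spread over all WT libraries, with 12, 11 and 5 counts in apices and 9, 4 and 9 in buds. With at most 10 off counts instead of 3, 6 genes were on in Aatoe2_IL and 22 in WT. With at least 80 on counts, 1 and 0 were left, and with 0 off counts, 0 and 1. At limits of 10 and 20 counts the numbers were 58 and 141.

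The identifiers of the 6 genes did not lie in runs. Between neighbouring members, in the order of identifier numbers, there were 1617 other identifier numbers from Aa_G79730h1 to Aa_G107100h3, 13787 to IPMI2 (Aa_G401570h1), 1295 to Aa_G437570h1, 7742 to Aa_G874400h1 and 311 to Aa_G950580h1, of 30538 distinct numbers in the table. No run was found with 0, 5 or 20 other numbers allowed between members. The order of the numbers stands here for nearness only as far as the numbering follows the genome, which the files do not state. At limits of 10 and 20 counts, chosen after seeing the data, 199 genes gave 9 runs, each a pair. In 7 of them both genes were on in the same genotype. Of the 199 genes 58 were on in Aatoe2_IL and 141 in WT, so genes paired at random would often share a genotype, and nothing is read from this number. At these limits the genotypes could also overlap, as for Aa_G343430h1, with 20 WT counts against 10. One pair held adjacent numbers, Aa_G452770h1 and Aa_G452780h1, with 30 and 25 Aatoe2_IL counts against 8 and 4 in WT. Their reads were uneven: Aatoe2_IL bud replicate 2 held 19 of the 25 counts of Aa_G452780h1. WT apex replicate 1 held 6 of the 8 WT counts of Aa_G452770h1. Another, Aa_G583360h1 and Aa_G583370h1, had 22 and 20 WT counts against 8 and 10, and 12 of the 22 were in WT bud replicate 1.

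A single selected gene, Aa_G874400h1, belonged to such a pair, and its partner went the other way. Aa_G873850h1, with 2 other identifier numbers between them, had 3, 2 and 1 counts in WT apices, 7, 6 and 2 in WT buds, 1, 0 and 1 in Aatoe2_IL apices and 1, 1 and 0 in Aatoe2_IL buds. WT was thus the higher genotype for this neighbour, at 21 counts against 4. WT bud libraries were above all Aatoe2_IL bud libraries, whereas in apices WT and Aatoe2_IL met at 1 count.

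Copies of the same identifier number, marked h1, h2 and so on in the table, may share reads. Of the 6 genes only Aa_G107100h3 had such copies. Aa_G107100h1 and Aa_G107100h4 had 0 counts in all 12 libraries, and Aa_G107100h2 had 3, all in WT bud replicate 3. No copy was on in Aatoe2_IL while Aa_G107100h3 was off. Whether reads of Aa_G107100h3 were shared with these copies in the counting was not tested.

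Genes next to the members were read from the fit across all genes, since they were not selected. Within 10 identifier numbers on either side there were 140 other genes, of which 76 were tested. In apices none of the 76 passed edgeR's test between genotypes, where 0.292% of all genes tested were higher and 0.809% lower in Aatoe2_IL. At an unadjusted p under 0.05 there were 11, 5 of them lower, and DESeq2 called 0 of 81. In buds 0 were higher and 3 lower (3.95%), against 2.98% higher and 1.97% lower among all genes tested. DESeq2 called 4 of 81 in buds, all lower. Over all genes, in either direction, DESeq2 called 557 in apices and 1338 in buds. The number of genes with a DESeq2 adjusted p and the split of these calls by direction were not counted. Nothing is therefore read from the DESeq2 calls among neighbours or from their direction. The authors' deposited tables also list the 3 that edgeR called in buds, each as lower in Aatoe2_IL. The authors' values are a fold of 0.324 (their adjusted p = 0.000305) for Aa_G437760h1, 0.288 (0.000494) for Aa_G401500h1 and 0.415 (0.0402) for Aa_G437560h1. They list 2 further neighbours, BBX28 in apices and Aa_G873630h1 in buds, described after the called ones. At an unadjusted p under 0.05 there were 13 in buds, 10 of them lower. The share of all genes at that unadjusted level was not counted, so nothing is read from these numbers in either tissue. The median log2 difference of the neighbours was 0.03 in both tissues, against -0.00 and -0.01 over all genes tested.

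Of the 3 neighbours that fell in Aatoe2_IL buds by edgeR, 2 lay by Aa_G437570h1 and 1 by IPMI2. Aa_G437560h1, the next number below Aa_G437570h1, had 7.76, 5.20 and 3.60 CPM in WT buds and 2.80, 2.18 and 1.86 in Aatoe2_IL buds. All WT bud libraries were above all Aatoe2_IL bud libraries, by a log2 difference of -1.27 (SE 0.34, edgeR adjusted p = 0.0448). The call held in 4 of 13 alternatives, with values between -1.51 and -0.95 and adjusted p between 0.0164 and 0.175. It was lost without WT bud replicate 1 or 2, and without any single Aatoe2_IL bud library. Leaving out both replicate 1 libraries of either genotype also lost it. So did a fit of the 6 bud libraries on their own (edgeR adjusted p = 0.0696). With the replicate number as a block in those 6 libraries the difference was -1.24 (edgeR adjusted p = 0.0535). In apices, where it had 6.32, 5.79 and 3.38 CPM in WT and 2.43, 3.77 and 2.29 in Aatoe2_IL, the groups overlapped and the difference of -0.87 (SE 0.33, edgeR adjusted p = 0.202) did not pass.

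PLL18 (Aa_G437760h1), named after a pectate lyase-like gene of Arabidopsis, a family that cuts pectin in cell walls, lay 9 numbers above Aa_G437570h1. It had 8.07, 6.87 and 8.01 CPM in WT buds and 3.01, 1.33 and 3.06 in Aatoe2_IL buds, without overlap. Its log2 difference was -1.64 (SE 0.34, edgeR adjusted p = 0.0124). The call was lost in 1 of 13 alternatives, without Aatoe2_IL bud replicate 2 (-1.32, edgeR adjusted p = 0.0549). In apices the groups overlapped, and the difference of -0.87 (SE 0.44, edgeR adjusted p = 0.352) did not pass. Between PLL18 and Aa_G437570h1, none of the tested genes was called in either tissue.

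Aa_G401500h1, 7 numbers below IPMI2, had 10.6, 4.16 and 4.20 CPM in WT buds and 2.37, 2.18 and 0.874 in Aatoe2_IL buds. The groups did not overlap, but WT bud replicate 1 was far above the other 2. Its log2 difference was -1.79 (SE 0.45, edgeR adjusted p = 0.0341), and it was -1.20 and not called without that library. The call was also lost without Aatoe2_IL bud replicate 2 or 3 and when the 6 bud libraries were fitted on their own, and it held in 8 of 13 alternatives. In apices its difference was 0.52 (edgeR adjusted p = 0.666).

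By DESeq2 a further neighbour was called in buds, Aa_G79780h1, 5 numbers above Aa_G79730h1. It had 13.0, 13.7 and 13.3 CPM in WT buds and 8.60, 5.87 and 10.9 in Aatoe2_IL buds, without overlap. Its log2 difference was -0.66 by both tools, with an adjusted p of 0.0371 by DESeq2 and 0.0632 by edgeR. BBX28 (Aa_G107310h1), which encodes a B-box protein and lay 10 numbers above Aa_G107100h3, is listed as higher in Aatoe2_IL apices in the authors' deposited table (fold 2.61, adjusted p = 8.24e-07). It had 7.72, 4.32 and 7.52 CPM in WT apices and 7.39, 29.7 and 13.6 in Aatoe2_IL apices, where the groups overlapped and replicate 2 was high. Its log2 difference of 1.36 did not pass by edgeR (SE 0.48, adjusted p = 0.183), nor by DESeq2 (1.38, adjusted p = 0.236). Aa_G873630h1, 4 numbers below Aa_G874400h1, is listed as lower in Aatoe2_IL buds in the authors' deposited table (fold 0.49, adjusted p = 0.0433). It had 15.5, 5.0 and 4.1 CPM in WT buds and 6.13, 3.88 and 1.97 in Aatoe2_IL buds, with overlap and a high WT replicate 1. Its log2 difference was -1.04 by edgeR (SE 0.50, adjusted p = 0.266) and -1.03 by DESeq2 (adjusted p = 0.235).

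Only 6 of the genes with an identifier number directly next to a member were tested. Beside Aa_G437560h1, these included Aa_G107090h1, next to Aa_G107100h3, at 5.70, 4.84 and 4.23 CPM in WT apices and 2.43, 2.55 and 3.05 in Aatoe2_IL apices. The groups did not overlap there, yet the log2 difference of -0.88 (SE 0.29, edgeR adjusted p = 0.158) did not pass over all genes. In buds the groups overlapped, at -0.73 (SE 0.29, edgeR adjusted p = 0.181). The remaining 4 (Aa_G79720h1, Aa_G107220h1, Aa_G401560h1 and Aa_G401580h1) had log2 differences between -0.35 and 0.46 in the 2 tissues, none of them called.

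**Figure D4:**
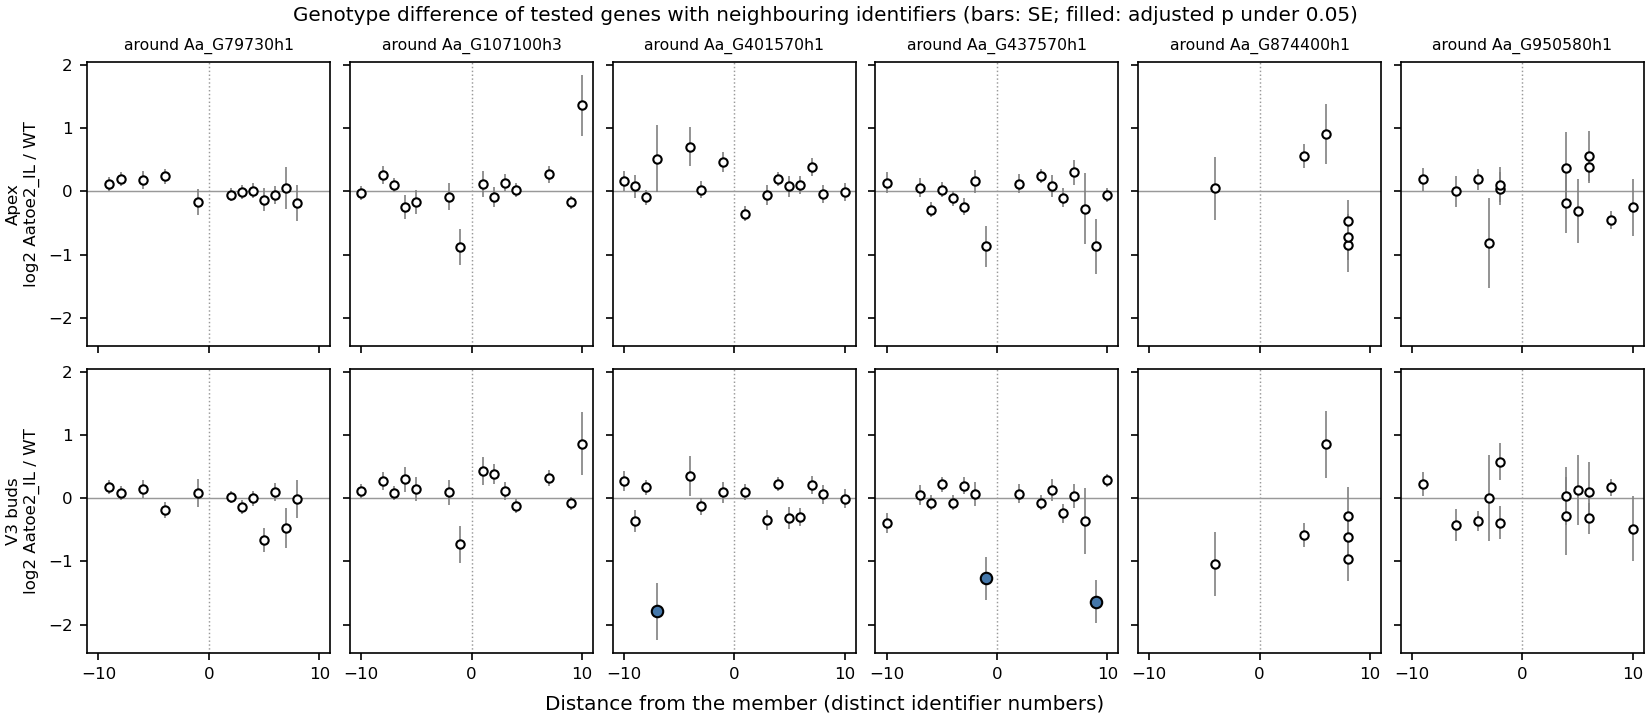
Log2 difference of Aatoe2_IL minus WT (vertical axis, bars are SE) of the 76 tested genes near the 6 members, against the distance in identifier numbers (horizontal axis), with apices above and V3 buds below. Filled points passed an edgeR adjusted p of 0.05; they are 0 in apices and 3 in buds, all below 0, at distances of -1, 9 and -7.

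Surroundings differed between members in how many neighbours had any reads. Copies of an identifier number count here as genes of their own, as they do in the share over the table. Around Aa_G437570h1, 0 of 20 neighbours were at 0 in all 12 libraries, and around Aa_G107100h3, Aa_G79730h1 and IPMI2 the numbers were 2 of 20, 3 of 20 and 4 of 22 (18.2%). Around Aa_G874400h1, 11 of 26 (42.3%) were at 0, and around Aa_G950580h1, 18 of 32 (56.2%), against 26.3% of all genes in the table. The neighbours of these 2 had a median of 1 and 0 total counts, where the median over all genes was 374. Their 10 nearest numbers on either side also spanned 4630 and 5500 units of the numbering, against 300 to 650 for the other 4. These 2 members followed each other in the order of numbers, with 311 other identifier numbers between them. Whether the numbering is as thin in the rest of that stretch was not tested. Both numbers directly next to Aa_G874400h1, Aa_G874180h1 and Aa_G874840h1, were at 0 in all 12 libraries.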

How the data were processed

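Poly(A) RNA of 12 samples was read as single reads of 100 bp from a directional kit, per the labels' protocols. The deposited table gave raw read counts by gene. STAR, HTSeq 0.5.4p1, DESeq and DESeq2 are named in the submitters' processing notes without roles. Build, annotation and strand setting are not given in the sources used here; overlapping and antisense genes are uncertain for that reason. In the authors' 4 deposited lists, per the file headers, signal columns are group means of normalized counts, fold is the Aatoe2_IL to WT ratio with its log2, and the adjusted p-value is theirs. Counters of reads outside genes (13.4% to 21.5% of reads) were left out.

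edgeR 4.0.16 (R 4.3.3) fitted the deposited counts of all 12 libraries (4 groups, TMM, quasi-likelihood, default filter, 19520 genes, Benjamini-Hochberg), with code tested on simulated data. Each SE is the log2 difference over the square root of F. DESeq2 1.42.0 was an alternative. Permutation tests used log2(CPM + 0.1). Deviations from group means correlated between same-numbered apex and bud libraries at 0.415, 0.32 and 0.239 in Aatoe2_IL and at 0.355, 0.0622 and 0.248 in WT. Differently numbered libraries were not compared in this way, and the labels state no pairing, so none was established. The main fit and the permutation tests did not use the replicate number. Members and lists were chosen with earlier results of these data known. Every member is named, with genes just outside the limits, other copies and neighbours called by edgeR, DESeq2 or the authors; Aa_G107090h1, the other adjacent numbers and the pairs at looser limits were picked after their values were seen. Members were too few for groups by function, and of the 6 only IPMI2 had a description.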

Additional observations from a re-analysis of the deposited data

How the results depend on the processing

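The number of genes on in Aatoe2_IL (1) became 0 with at most 0 off counts and 6 with at most 10 off counts or at least 20 on counts, and ranged from 1 to 3 when 1 library was left out (3 without WT apex or bud replicate 1). The number on in WT (5) became 1, 22, 0 and 16 with at most 0, at most 10, at least 80 and at least 20 counts, and 3 with counts scaled to a common library size, where Aa_G107100h3 and IPMI2 no longer met the limits. It ranged from 1 (without WT apex replicate 1) to 7 (without Aatoe2_IL apex replicate 1), and was 2 without WT bud replicate 1. Alternatives chosen after seeing the data gave, without both WT replicate 1 libraries, 5 genes on in Aatoe2_IL and 1 in WT, without both Aatoe2_IL replicate 1 libraries 10 in WT, and 9 runs at limits of 10 and 20 counts.

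The replicate number as a block was fitted on the 6 libraries compared only. Against the same 6 libraries without it, tissue calls went from 1037 to 3155 in Aatoe2_IL and from 1633 to 3937 in WT. Genotype calls went from 129 to 45 in apices and from 621 to 589 in buds. From all 12 libraries, without a block, the calls were 1107, 2184, 215 and 967 in that order. The block changed neither tissue result of the 2 tested members. Genotype correlations of same-numbered libraries were at most 0.0998, and no pairing between genotypes was read from these numbers. Leaving out 1 library gave 629 to 1066, 1258 to 2455, 35 to 698 and 410 to 1017 calls in that order. Apex genotype calls were 400 without a filter, 129 from apex libraries alone, 557 by DESeq2 and 1368 and 835 without both WT or both Aatoe2_IL replicate 1 libraries; bud calls were 621 from bud libraries alone. Neighbours lower in Aatoe2_IL apices numbered 3 without both WT replicate 1 libraries and 0 when any 1 library was left out. In buds they numbered 1 without both, from bud libraries alone, or within 1 or 5 identifier numbers, and 0 to 4 when 1 library was left out. The cause was not tested. Values under 1 CPM rest on few reads, and a gene at 0 may be below detection.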
